A study of Mus musculus with 6 samples.

Results

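The comparison set all 4 arrays of cells carrying BCR-ABL against the 2 arrays of cells that did not express it, and asked which differences were shared by BCR-ABL cells with and without the gene Alox5. All 6 arrays of the series were used. Every probe set with a value and exactly 1 gene symbol in the platform annotation entered, which gave 21601 of 35557 probe sets, standing for 19934 symbols. All mice were C57BL/6 (B6) and 8 weeks old by their labels, and all donors had received 5-fluorouracil. Donor marrow was infected with retrovirus, transplanted into B6 recipients and sorted 14 days later by the surface gate Lin-c-Kit+Sca-1+, with GFP+ added for the leukaemic cells. HSC (2 arrays) denotes wild-type cells of this gate that did not express BCR-ABL, described as vector samples and given GFP alone by retrovirus. LSC (leukaemia stem cells, 2 arrays) denotes GFP-positive cells from wild-type donors given BCR-ABL and GFP, and Alox5-/- LSC (2 arrays) the same from Alox5-/- donors. The Alox5 deletion was in the donor cells only, since recipients were B6 mice. No vector group from Alox5-/- donors was analysed here, so the deletion without BCR-ABL was not compared. The titles call the arrays biological replicates, with n = 2 in each group. How many animals gave cells to an array is not given in the sources used here, so p-values measure only the spread between these samples.

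BCR-ABL is the fusion kinase that drives chronic myeloid leukaemia. It is always active and signals through STAT5, the RAS and MAPK cascade and PI3K, and STAT5 switches on its own inhibitors of the SOCS family. The Lin-c-Kit+Sca-1+ gate holds blood stem cells and early progenitors, and in this disease model the leukaemia stem cells lie in it. Alox5 encodes arachidonate 5-lipoxygenase, the first enzyme of leukotriene synthesis, which the study removed to ask what leukaemia stem cells need from it.

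The deposited table gave a score for each probe set, with no statement of its quantity, log base or direction. Scores ran from 0 to 62.1, and on each array 33.5% to 53.7% of them exceeded 16, which log2 of a 16-bit scan cannot. Ranks of known genes did not run from silent to expressed. Actb (actin) had a mean of 6.64, at the 0.787th percentile of all probe sets, and Ptprc, the CD45 antigen of blood cells, a mean of 10.3, at the 3.55th percentile. Krt5, a skin keratin, had a mean of 20.1 at the 91.2th percentile and Ins2, an insulin gene, 19.6 at the 88.4th. Other genes looked at were spread out, with B2m at the 2.12th percentile, Cdh5 at the 52.1th, Col1a1 at the 55.9th and Eef1a1 at the 68.9th. The genes printed were picked after their values were seen. The 1034 probe sets of olfactory receptors had a median score of 16.1, as did all probe sets, and the 176 probe sets of ribosomal proteins a median of 10.8. The labelled cell type therefore could not be checked by marker levels, and "higher" and "lower" refer below to the score and not to RNA. Ly6a, which encodes Sca-1, was not among the probe sets with 1 symbol and a value. In bulk samples such as these, fewer cells of a type and less RNA per cell cannot be told apart.

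**Figure D1:**
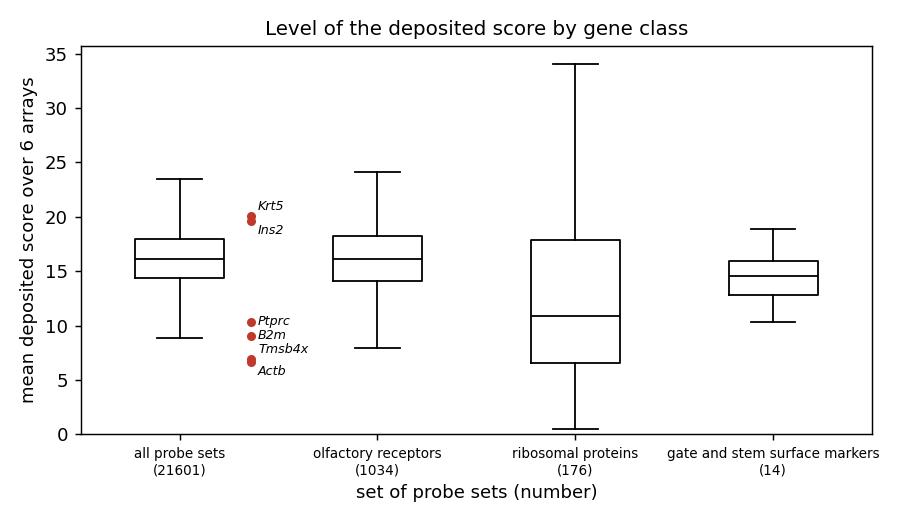
Mean deposited score over the 6 arrays (vertical axis, score units) for sets of probe sets (horizontal axis). Boxes span the quartiles with the median as a line, whiskers reach the last value within 1.5 box heights, values beyond are not drawn, and red points are single genes. The olfactory receptors centre on the same median, 16.1, as all probe sets, and Actb (6.64) and Ptprc (10.3) lie far below Krt5 (20.1).

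Every array was centred on its own median over the 1-symbol probe sets, which ran from 14.9 to 17.0 before centring. All values below are centred scores, so a negative value means below the middle of that array, and differences are BCR-ABL minus HSC in score units. The 3 pairs of arrays from the same group correlated at 0.731 to 0.773 over probe sets, against 0.746 to 0.805 for the 4 pairs of BCR-ABL arrays of different genotype and 0.699 to 0.779 for the 8 pairs of a BCR-ABL and an HSC array. HSC replicate 2 stood apart from all others, at 0.699 to 0.731, and results that rest on it are given without it as well. Of 754 symbols with exactly 2 probe sets, 409 (54.2%) had differences of the same sign at both, and among the 107 with at least 1 probe set at an unadjusted p under 0.05 the share was 51.4%.

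Promoters of 3 of the genes with the smallest p are printed because the genes belong to immune cell programmes, B cells for Vpreb3 and Cd79a and interferon signalling for Irf2, and because Irf2 alone of these held the motif searched. Each window runs from 250 bases before to 50 after the start of the gene in RefSeq, assembly GRCm38.p6, on the plus strand, at chr10:75948050-75948349 for Vpreb3, chr7:24897247-24897546 for Cd79a and chr8:46739495-46739794 for Irf2. Capitals mark TTCNNNGAA, the letters of the core of a STAT5 site, which read the same on both strands, so 1 search covers both.
Vpreb3: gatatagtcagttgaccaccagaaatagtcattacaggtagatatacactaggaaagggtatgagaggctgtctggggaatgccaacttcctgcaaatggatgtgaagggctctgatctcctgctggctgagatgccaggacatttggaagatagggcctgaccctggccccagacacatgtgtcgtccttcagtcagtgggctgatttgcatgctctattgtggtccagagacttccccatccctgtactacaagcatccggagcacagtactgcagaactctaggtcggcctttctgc
Cd79a: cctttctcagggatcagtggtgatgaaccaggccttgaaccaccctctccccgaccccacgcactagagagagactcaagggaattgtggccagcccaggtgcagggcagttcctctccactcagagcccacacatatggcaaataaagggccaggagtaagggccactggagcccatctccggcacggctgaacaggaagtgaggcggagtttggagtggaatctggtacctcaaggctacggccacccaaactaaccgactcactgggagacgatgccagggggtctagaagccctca
Irf2: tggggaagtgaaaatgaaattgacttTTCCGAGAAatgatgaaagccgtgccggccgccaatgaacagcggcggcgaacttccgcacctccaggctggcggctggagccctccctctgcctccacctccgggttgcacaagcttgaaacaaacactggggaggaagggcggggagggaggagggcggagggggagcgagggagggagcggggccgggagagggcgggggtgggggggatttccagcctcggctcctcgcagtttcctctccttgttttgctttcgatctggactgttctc
Of the 24 probe sets described next, 23 had a gene with a window, in 25 windows, and 2 windows (8%) held the motif, that of Irf2 and 1 of Dnajc7. Among all 32851 windows of the table, 2726 (8.3%) held it. Of the 18 genes listed as STAT5 targets, 12 had windows, and 4 of their 19 windows (21.1%) held it. Socs2 and Osm, the STAT5 targets described further below, had no window and were not searched. A match is a description of letters and not a binding site.

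In BCR-ABL cells, the pre-B cell gene Vpreb3, the steroid dehydrogenase gene Akr1c6 and the endothelial protein C receptor gene Procr had higher scores than in HSC, in both genotypes. The B cell receptor component Cd79a, the interferon regulator Irf2 and the mitochondrial genes Rtn4ip1 and Cyb5b had lower scores in both. None passed the adjusted threshold of 0.05. With limma, 0 of 21601 probe sets passed it (smallest adjusted p 0.235), and 1363 had an unadjusted p under 0.05, which is 6.31% of those tested. Of these, 545 (2.52% of those tested) were higher in BCR-ABL cells and 818 (3.79%) lower, so 60% were lower. Without centring 89.9% of such calls were lower, and after quantile normalization 59.4%. The median difference over all probe sets was 0.113 with centring and -0.601 without, so directions below are relative to the array median. The interquartile range of all differences ran from -0.879 to 0.955.

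In each direction, the 12 genes of smallest p were taken among probe sets whose 4 BCR-ABL arrays all lay on one side of both HSC arrays. Such separation was found at 3366 probe sets (15.6% of all), above HSC at 1826 (8.45%) and below at 1540 (7.13%). The 24 genes were chosen for small p and separation, and their values are a description of that choice. Their unadjusted p ran from 1.43e-05 to 0.00163 and their adjusted p from 0.235 to 0.533. All 24 had an unadjusted p under 0.05 without HSC replicate 1 and also without HSC replicate 2.

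Vpreb3 is a gene of precursor B cells. It scored -7.36 and -7.40 in HSC, 1.31 and 1.81 in LSC, and 1.99 and -0.60 in Alox5-/- LSC. All 4 BCR-ABL arrays were far above both HSC arrays, and the genotypes overlapped. The difference was 8.50 ± 1.01 (SE; limma, adjusted p = 0.235), made up of 8.94 for LSC and 8.07 for Alox5-/- LSC against the same HSC arrays. The genotypes differed by -0.86, with a 95% interval from -3.72 to 1.99.

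Cd79a encodes a signalling chain of the B cell receptor. It scored 7.68 and 11.2 in HSC, 0.87 and -2.12 in LSC, and -1.28 and -3.37 in Alox5-/- LSC. Both HSC arrays were above every BCR-ABL array, opposite to Vpreb3. The difference was -10.9 ± 1.49 (limma, adjusted p = 0.235). It was -10.1 for LSC and -11.8 for Alox5-/- LSC, and the interval of the genotype difference ran from -5.76 to 2.36.

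Akr1c6 is a gene of the aldo-keto reductase family that acts on steroids. Its scores were -0.71 and -2.73 in HSC, 7.46 and 6.62 in LSC, and 8.52 and 6.49 in Alox5-/- LSC. The BCR-ABL arrays lay within about the same span in both genotypes, all above HSC. Its difference was 8.99 ± 1.12 (limma, adjusted p = 0.235). Procr, whose product EPCR marks long-term blood stem cells, scored -0.20 and -0.82 in HSC, 3.81 and 3.63 in LSC, and 6.26 and 4.49 in Alox5-/- LSC. All BCR-ABL arrays were higher, and the Alox5-/- LSC arrays were highest, with a difference from HSC of 5.88 against 4.23 for LSC.

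Mycn, a transcription factor of the Myc family, scored -2.65 and -2.82 in HSC, 3.54 and 1.05 in LSC, and 4.78 and 4.32 in Alox5-/- LSC. The groups did not overlap, and both Alox5-/- LSC arrays were above both LSC arrays. The pooled difference was 6.16 ± 1.23, with 5.03 for LSC and 7.28 for Alox5-/- LSC, and the genotype p was 0.117 (limma, unadjusted), the smallest among the 24 genes. Mettl18, a histidine methyltransferase gene, scored -4.45 and -2.24 in HSC, 8.54 and 3.23 in LSC, and 10.9 and 7.67 in Alox5-/- LSC. BCR-ABL arrays were all higher and varied widely among themselves. Hacd1, an enzyme gene of very long fatty acid synthesis, had scores of 8.09 and -0.38 in HSC, 15.8 and 13.9 in LSC, and 17.9 and 15.4 in Alox5-/- LSC. Its 2 HSC arrays were far apart, so that its difference of 11.9 ± 2.21 became 16.1 without HSC replicate 1 and 7.67 without HSC replicate 2.

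The other higher genes had differences between 4.65 and 6.46. Cdc5l, a splicing factor gene, was low on every array, at -14.8 and -15.8 in HSC, -8.25 and -10.4 in LSC, and -10.9 and -8.12 in Alox5-/- LSC. Its 3 probe sets all had positive differences, and that of highest mean score 1.64. Rpl19, a protein of the large ribosomal subunit, had a difference of 4.65 ± 0.96 at the probe set named, and 5 of its 6 probe sets had that sign, with 0.98 at the one of highest mean score. N4bp2l2 (5.78), the co-chaperone gene Dnajc7 (4.70), the thrombin receptor gene F2rl3 (5.83) and the vesicle transport gene Trappc2 (6.46) completed the set. Trappc2 and Hacd1 each had 2 probe sets with the same sign, but the other of each differed by 2.0 and 3.18.

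Rtn4ip1, which encodes a mitochondrial oxidoreductase, had the smallest p of all named probe sets. It scored 3.76 and 4.16 in HSC, -3.58 and -3.36 in LSC, and -4.71 and -4.16 in Alox5-/- LSC. The arrays of each group lay close together, and both BCR-ABL groups lay far below HSC. The difference was -7.91 ± 0.87 (limma, adjusted p = 0.235), and the interval of the genotype difference ran from -3.36 to 1.44.

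Cyb5b, cytochrome b5 of the outer mitochondrial membrane, scored 4.22 and 7.90 in HSC, -5.79 and -5.58 in LSC, and -3.72 and -2.62 in Alox5-/- LSC. Every BCR-ABL array was lower, the LSC arrays most. Its differences were -11.7 for LSC and -9.23 for Alox5-/- LSC. Irf2, a regulator of interferon-responsive genes, scored 3.15 and 2.72 in HSC, -3.87 and -4.26 in LSC, and -2.09 and -3.67 in Alox5-/- LSC. The groups did not overlap, and the difference was -6.40 ± 0.95 (limma, adjusted p = 0.282). Nlrc4, an inflammasome sensor gene, scored 10.7 and 11.8 in HSC, 4.86 and 0.42 in LSC, and 2.17 and 2.52 in Alox5-/- LSC. All BCR-ABL arrays were lower, and LSC replicate 1 was nearest to HSC.

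Nae1, a subunit of the enzyme that activates NEDD8, scored 5.95 and 4.72 in HSC, -4.55 and -1.61 in LSC, and -5.94 and -3.70 in Alox5-/- LSC. Its difference was -9.29 ± 1.28 with no overlap of BCR-ABL and HSC arrays. Crtc2, a coactivator of CREB, scored 6.69 and 5.42 in HSC, -1.94 and -1.41 in LSC, and -3.88 and -0.68 in Alox5-/- LSC. It too was lower on every BCR-ABL array, by -8.04 ± 1.14. The remaining lower genes were Zswim7, a homologous recombination gene (-7.30), the apoptosis suppressor gene Ddias (-6.77), the zinc finger gene Zfp760 (-6.68), the deubiquitinase gene Zranb1 (-6.06) and Ubl7 (-5.88). Both probe sets of Zranb1 were lower.

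**Figure D2:**
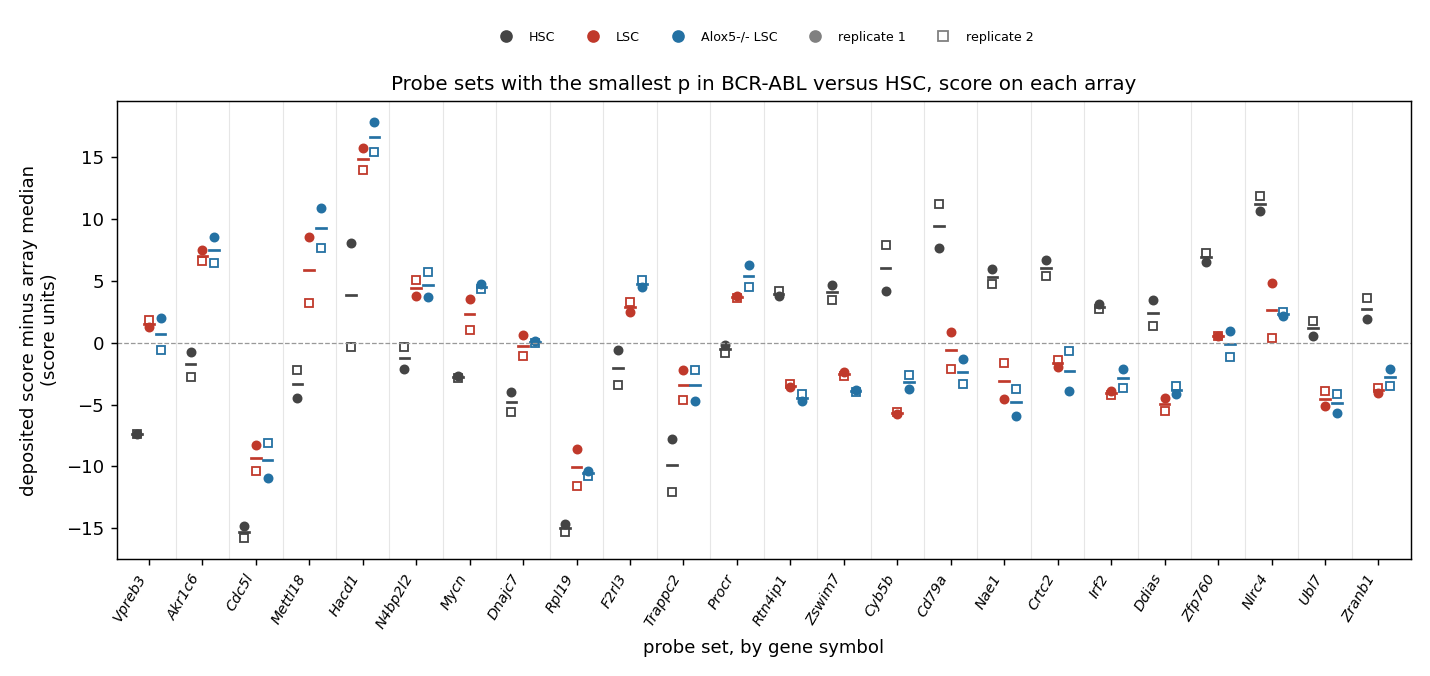
Centred score (vertical axis, score units) on each of the 6 arrays for the 24 genes of smallest p among separated probe sets (horizontal axis, 12 in each direction). Colours are groups, filled circles replicate 1, open squares replicate 2 and bars group means. The 4 BCR-ABL points of each gene lie on one side of both HSC points, because separation was a condition of the choice, while LSC and Alox5-/- LSC points intermix for many genes, as for Vpreb3.

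The question of a shared difference was read from each genotype's own contrast. LSC against HSC had 1109 probe sets at an unadjusted p under 0.05 in limma (5.13%), 474 higher (2.19%) and 635 lower (2.94%), and 0 past the adjusted threshold (smallest adjusted p 0.575). Alox5-/- LSC against HSC had 1291 (5.98%), 586 higher (2.71%) and 705 lower (3.26%), and again 0 after adjustment (0.621). Both contrasts use the same HSC arrays. In both at once and in the same direction were 390 probe sets (1.81% of those tested), 119 higher (0.551%) and 271 lower (1.25%), and 5 had opposite directions. The share lower was 69.5%, and 90.9% of 475 without centring. For LSC alone it was 57.3% with centring and 79.2% without, and for Alox5-/- LSC alone 54.6% and 89.1%. Without LSC replicate 1 the LSC share was 46.6%, and without Alox5-/- LSC replicate 2 that of Alox5-/- LSC was 40.5%. The 390 were 35.2% of the LSC list and 30.2% of the Alox5-/- LSC list. Without HSC replicate 1 the count was 935, and 229 with the number in the sample descriptions as a covariate. All 24 genes above were among the 390, with an unadjusted p under 0.05 in each genotype. They were chosen by small pooled p and separation on these same arrays, so this follows largely from the choice.

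The genotypes themselves differed at an unadjusted p under 0.05 at 857 probe sets (3.97%), 415 higher (1.92%) and 442 lower (2.05%) in Alox5-/- LSC, with 0 after adjustment (smallest adjusted p 1.00, limma). That count was 1439 without Alox5-/- LSC replicate 2. The share lower, 51.6%, was 75.6% without centring and 35.6% without that array, so the balance of directions depends on both. Among the 1363 probe sets of the pooled comparison, 45 (3.30%) had a genotype p under 0.05. The pooled test treats a distance between genotypes as residual spread, which by itself favours genes on which they lie close. For the 24 genes, 0 had a genotype p under 0.05, but the 95% interval of the genotype difference reached between 2.40 and 6.19 units to either side. Relative to the pooled difference, the genotype difference was largest for Mycn, at 36.6%. For these genes, genotype differences within those intervals were not detectable with 2 arrays each.

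**Figure D3:**
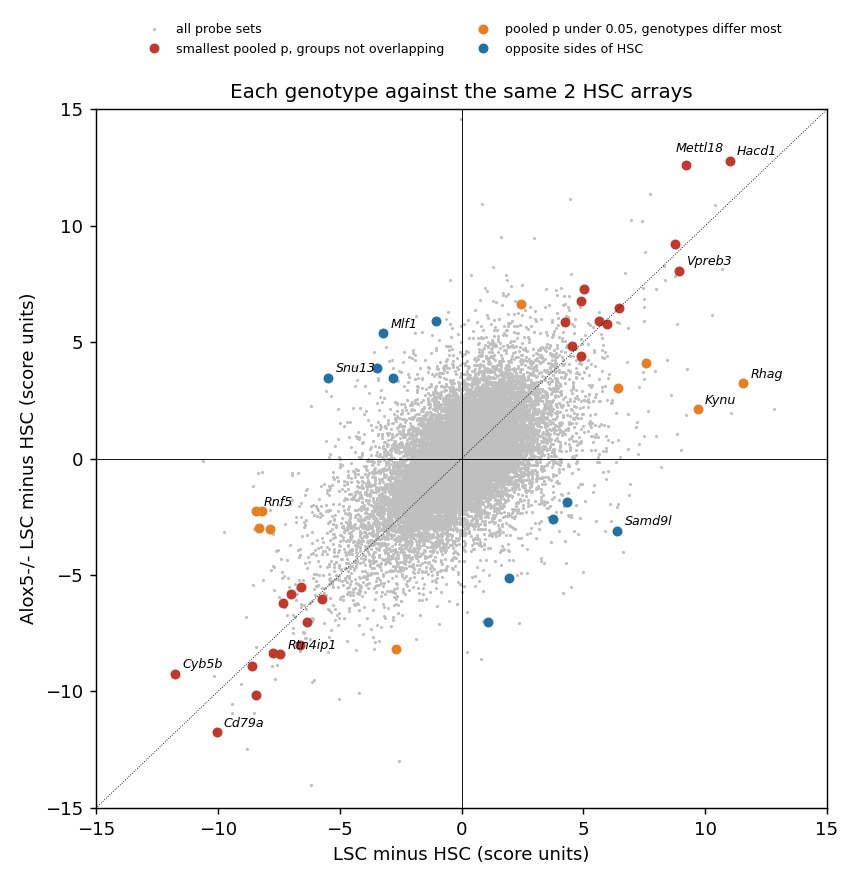
Difference from the same 2 HSC arrays for LSC (horizontal axis) and Alox5-/- LSC (vertical axis), in score units, for every probe set. Because both axes subtract the same HSC arrays, grey points spread along the diagonal. The 24 genes of smallest pooled p lie near the diagonal, genes such as Kynu (9.70 and 2.13) off it, and Snu13 and Samd9l on opposite sides of HSC.

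Of the probe sets at an unadjusted p under 0.05 in the pooled comparison, 10 were taken as those on which the genotypes differed most, with genotype p from 0.000404 to 0.0174 and adjusted p of 1.00 in each (limma). Rnf5, an E3 ligase anchored in the endoplasmic reticulum membrane, scored 1.52 and 1.15 in HSC, -7.31 and -6.86 in LSC, and -0.84 and -1.0 in Alox5-/- LSC. Both genotypes were below HSC, LSC by -8.42 and Alox5-/- LSC by -2.26. Kynu, the kynureninase of tryptophan breakdown, scored -1.14 and -1.64 in HSC, 9.81 and 6.81 in LSC, and -0.24 and 1.72 in Alox5-/- LSC. Here LSC was far above the others, by 9.70, and Alox5-/- LSC by 2.13. Mdh1, cytosolic malate dehydrogenase, had -7.87 in LSC and -3.04 in Alox5-/- LSC, and Tifa, an adaptor of NF-kappaB signalling, -8.30 and -3.0. Rhag, of the red cell Rh complex, had 11.6 and 3.23, with Alox5-/- LSC replicate 1 (-4.15) between the HSC arrays (-4.48 and -3.76). Lilr4b, a leukocyte receptor gene, and Bbs7, of the ciliary BBSome, also had larger positive differences in LSC (6.41 and 7.57) than in Alox5-/- LSC (3.03 and 4.13). The ribosomal protein gene Rpl12 (2.43 and 6.66) and Mob3b (-2.68 and -8.20) were farther from HSC in Alox5-/- LSC. The other probe set of Mob3b had a positive pooled difference of 5.51, and only 2 of 5 probe sets of Gpatch8 (-8.17 and -2.25) had its sign.

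On 10 other genes the genotypes lay on opposite sides of HSC by their means, with genotype p from 6.56e-05 to 0.00107 and adjusted p of 1.00 (limma). Snu13, a protein of the spliceosome and of small nucleolar particles, scored -4.57 and -5.09 in HSC, -9.31 and -11.3 in LSC, and -1.53 and -1.17 in Alox5-/- LSC. LSC arrays were all below HSC and Alox5-/- LSC arrays all above, a genotype difference of 8.95 with a 95% interval from 6.39 to 11.5. Samd9l, a growth-restraining gene of the interferon response, scored 0.06 and -4.00 in HSC, 2.79 and 6.04 in LSC, and -4.24 and -5.88 in Alox5-/- LSC. Il18, an inflammatory cytokine gene, had 4.34 in LSC and -1.85 in Alox5-/- LSC. The order of Snu13 was also seen for Mlf1, Prdm9, Mon1b and Zfp420, and that of Samd9l for Timm17a and Cspp1. Zfp944 had the order of Samd9l by its group means but not on every array. A pooled comparison hides such genes, whose pooled p ran from 0.305 upwards.

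Among genes of BCR-ABL signalling, the STAT5 feedback inhibitor gene Socs2 was higher in BCR-ABL cells at both of its probe sets. The first scored 0.92 and 4.56 in HSC, 12.5 and 9.69 in LSC, and 13.1 and 7.80 in Alox5-/- LSC. The second scored -4.17 and -4.34 in HSC, -0.79 and -0.31 in LSC, and 2.91 and 0.30 in Alox5-/- LSC. BCR-ABL arrays were above HSC at both, by 8.03 ± 1.78 and 4.78 ± 1.18 (limma, adjusted p = 0.536 and adjusted p = 0.580). Osm, a cytokine gene downstream of STAT5, differed by 2.50 ± 0.98. Of 20 probe sets on the STAT5 list, 3 had an unadjusted p under 0.05, the 2 of Socs2 and that of Osm, all higher (15.0%, against 6.31% of all), and the list median was 0.35 against 0.113. The genotypes' own medians for the list were -0.06 for LSC and 0.68 for Alox5-/- LSC, and the pooled median without centring was -0.36, so the median is not shared in direction. Btk, a kinase of B cell receptor signalling, scored -0.71 and 1.45 in HSC, -5.17 and -3.11 in LSC, and -3.04 and -3.99 in Alox5-/- LSC. It was lower on all BCR-ABL arrays and was the only 1 of 23 probe sets of adaptors and kinases with an unadjusted p under 0.05.

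The MAPK feedback list had 1 higher of 20 (Etv5, 5.40, whose second probe set had the other sign) and 1 lower, the phosphatase gene Dusp4, whose difference of -4.35 was -7.92 without HSC replicate 1 and -0.77 without HSC replicate 2. Of the PI3K and FoxO targets, 1 of 18 was higher (Trib1, 3.84) and 2 lower, Txnip (-2.85), a brake on glucose uptake, and the transcription factor gene Foxo1 (-4.25). Wnt signalling had the adaptor gene Dvl3 higher (4.06) and the coreceptor gene Lrp6 lower (-5.19, and -2.06 without HSC replicate 2), of 19 probe sets. Both of the leukotriene and eicosanoid calls, of 25 probe sets, were lower, the leukotriene B4 receptor gene Ltb4r1 (-3.54) and the prostacyclin receptor gene Ptgir (-2.73). Without HSC replicate 2 Ltb4r1 was at -2.06.

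The genes of the construct, of the gate and of the deletion had no probe set at an unadjusted p under 0.05 in the pooled comparison. Alox5 itself scored -3.45 and 2.91 in HSC, -2.79 and -1.76 in LSC, and -1.96 and -1.37 in Alox5-/- LSC. The arrays labelled Alox5-/- lay between the 2 HSC arrays and overlapped the LSC arrays, so the deletion was not visible in it, and which part of Alox5 the probe set covers is not given in the sources used here. Its difference of -1.70 ± 1.61 was -4.88 without HSC replicate 1 and 1.48 without HSC replicate 2. Kit differed by -1.37 ± 1.22 and Abl1 by 1.76 ± 1.08 (limma, adjusted p = 0.885 and adjusted p = 0.833). Without HSC replicate 1 they were at -2.31 and 2.62, and without HSC replicate 2 at -0.43 and 0.90. Abl1 was at 0.82 in LSC and 2.71 in Alox5-/- LSC, the second at an unadjusted p under 0.05 and the difference between the genotypes not. The 2 probe sets of Bcr differed by -1.23 ± 2.25 and 1.11 ± 1.07, and whether they read the fusion transcript is not given in the sources used here. Genes followed in this disease model had differences of -1.89 ± 1.14 for Ctnnb1, 0.85 ± 0.97 for Hif1a (0.44 without Alox5-/- LSC replicate 2), -0.39 ± 1.86 for Msr1, -0.20 ± 1.54 for Scd1 and 0.06 ± 1.07 for Blk. Msr1, Scd1 and Blk, and the first of the Bcr probe sets, changed sign when 1 array was left out.

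Stem cell genes had calls both ways. Slamf1, the CD150 antigen of long-term stem cells, scored -0.78 and -1.24 in HSC, 5.49 and 4.2 in LSC, and 1.94 and 4.70 in Alox5-/- LSC. Itga2b, the CD41 integrin of megakaryocytes and some stem cells, scored -3.78 and -3.14 in HSC, -0.69 and 2.13 in LSC, and 1.15 and 0.01 in Alox5-/- LSC. With Procr these were the 3 higher of 14 probe sets of gate and stem surface markers, against 2.52% of all probe sets. Their BCR-ABL arrays did not overlap HSC. The same held at 15.6% of all probe sets, but at 1234 of the 1363 with an unadjusted p under 0.05 (limma). The 1 lower marker was Cd34, at -2.74 ± 1.15 (limma, adjusted p = 0.783). Of the 14, 5 lay above the median of all probe sets, and the list median was -0.097 against 0.113. Meis1, a homeobox factor of stem cells, scored 3.84 and 3.37 in HSC, -1.05 and 0.30 in LSC, and -1.45 and -2.81 in Alox5-/- LSC. It was lower on every BCR-ABL array, by -4.86 ± 1.08 (limma, adjusted p = 0.536), as was Zfx (-5.52, and -2.07 without HSC replicate 2). Lyl1 (3.05) and Tal1 (2.62), partners in early blood cell transcription, were higher, so that 2 of 22 stem cell transcription factor probe sets were higher and 2 lower. In the Hox cluster 2 of 37 were higher, Hoxc11 (2.53, and 1.19 without HSC replicate 1) and Hoxa10 (2.64).

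**Figure D4:**
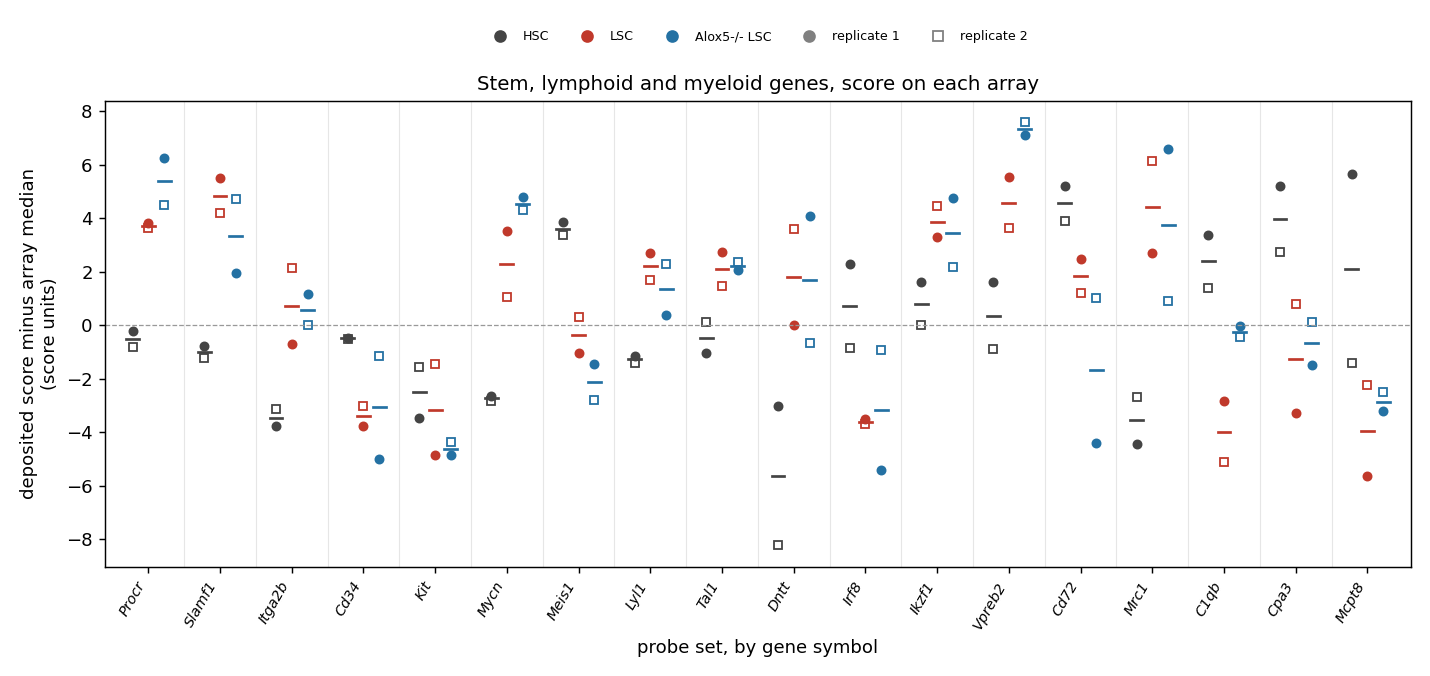
Centred score (vertical axis, score units) on each array for stem, lymphoid and myeloid genes (horizontal axis), with groups by colour, replicate 1 as filled circles, replicate 2 as open squares and group means as bars. Procr, Slamf1 and Mrc1 lie higher on the BCR-ABL arrays, and Meis1 and Cpa3 lower, while the LSC points of Kit span those of HSC.

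Some lineage lists had calls in both directions, where 2.52% of all probe sets were higher and 3.79% lower. Of 19 B cell probe sets 2 were higher, Vpreb3 and the surrogate light chain gene Vpreb2, and 2 lower, Cd79a and the receptor gene Cd72 (-4.47). Vpreb2 scored 1.60 and -0.90 in HSC, 5.52 and 3.63 in LSC, and 7.09 and 7.59 in Alox5-/- LSC. Dntt, the terminal transferase of lymphoid progenitors, scored -3.01 and -8.24 in HSC, 0.02 and 3.60 in LSC, and 4.08 and -0.68 in Alox5-/- LSC. Both were higher on all BCR-ABL arrays, by 5.61 ± 1.41 and 7.38 ± 1.88 (limma, adjusted p = 0.580 and adjusted p = 0.607), though Dntt was at 4.76 without HSC replicate 2. The lymphoid regulators Ikzf1 (2.87) and Irf8 (-4.11, and -2.54 without HSC replicate 1) went opposite ways. Mrc1, the mannose receptor gene of macrophages, scored -4.44 and -2.67 in HSC, 2.70 and 6.15 in LSC, and 6.59 and 0.89 in Alox5-/- LSC. It was higher on each BCR-ABL array, while the complement gene C1qb was lower (-4.51), more so in LSC (-6.38) than in Alox5-/- LSC (-2.64). Cpa3, a mast cell protease gene, scored 5.22 and 2.73 in HSC, -3.29 and 0.79 in LSC, and -1.48 and 0.12 in Alox5-/- LSC, and with Mcpt8 of basophils (-5.52, and -1.99 without HSC replicate 1) made the 2 lower of 15 mast cell, basophil and eosinophil probe sets. None of 21 granulocyte probe sets had an unadjusted p under 0.05. T and NK cells had the receptor gene Il2rb lower (-4.46) and Cd8b1 higher (3.15). Megakaryocytes and platelets had Itga2b and the thrombin receptor gene F2r (2.41) higher, of 15 probe sets. Only 4 of the 15 lay above the median of all probe sets, and the list median was -0.669 against 0.113. Single higher calls were Batf3 of dendritic cells (2.67), Rhag of red cells (7.40) and Lum of stroma (2.74). Without HSC replicate 1 Batf3, F2r and Lum were at 1.46, 1.57 and 1.66, and without HSC replicate 2 Il2rb was at -2.18. Because the score does not show which genes are expressed, the part of other cell types in these differences was not tested.

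Genes of the S phase and of the G2 and M phase lists with an unadjusted p under 0.05 were all lower in BCR-ABL cells. They were 3 of 36 S phase probe sets, the clamp loader gene Rfc3 (-4.44), the helicase gene Mcm2 (-3.39) and the primase gene Prim1 (-4.92), and 3 of 33 of G2 and M phase, the kinase gene Aurka (-4.77), the kinesin gene Kif20a (-4.64) and the cytokinesis gene Anln (-2.77). These are 8.33% and 9.09% of the lists, against 3.79% of all probe sets that were lower and 6.31% in either direction. The list medians were -0.406 and -0.334 against 0.113 for all probe sets. Aurka scored 0.94 and 2.11 in HSC, -1.21 and -2.12 in LSC, and -4.12 and -5.55 in Alox5-/- LSC. The 3 groups did not overlap, with LSC in the middle (limma, adjusted p = 1.00 for the genotype difference). Mcm2 scored -3.78 and -2.83 in HSC, -6.52 and -7.02 in LSC, and -7.96 and -5.28 in Alox5-/- LSC. It lay lower on all BCR-ABL arrays, while Btg1, an inhibitor of proliferation, was higher (3.65), the 1 call among 14 cell cycle inhibitor probe sets. Without HSC replicate 2 Rfc3 was at -2.40 and Anln at -1.66.

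Cytosolic ribosomal proteins had 9 higher and 7 lower of 176 probe sets (9.09%). Among all probe sets 6.31% had such a p, 2.52% higher and 3.79% lower. Probe sets of a gene agreed in part. Rps13 had a difference of 10.7 at 1 probe set and the other sign at the other 2. Of the 6 probe sets of Rps25, 3 were lower, each at an unadjusted p under 0.05 (-4.81, -6.82 and -2.61). In ribosome biogenesis the helicase gene Ddx21 was lower, at -0.71 and 0.69 in HSC, -5.39 and -3.28 in LSC, and -5.70 and -4.99 in Alox5-/- LSC. Its BCR-ABL arrays were all below HSC (by -4.83 ± 1.0, limma, adjusted p = 0.514), while Pes1 (5.72) and Wdr12 (2.97), partners in large subunit assembly, were higher. Pes1 scored 6.15 on Alox5-/- LSC replicate 1 and -0.60 to 0.48 on the other BCR-ABL arrays. The list thus had 2 higher and 1 lower of 26 probe sets, but only 5 lay above the median of all probe sets. Its median was -1.0 against 0.113, with -0.904 in LSC and -0.835 in Alox5-/- LSC.

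Of the metabolic and stress lists, only the hypoxia list had calls in both directions. All are read against 2.52% higher and 3.79% lower among all probe sets. Glycolysis had 2 lower of 19, Pgk1 (-2.59) and the glucose transporter gene Slc2a1 (-3.72), and the lowest pooled list median, -1.11, with -1.08 in LSC and -0.205 in Alox5-/- LSC. Pgk1 scored 2.52 and 2.21 in HSC, -0.20 and -0.63 in LSC, and 0.35 and -0.44 in Alox5-/- LSC, with no overlap. Oxidative phosphorylation had 1 lower of 48, Sdha (-3.03). The antioxidant list had 4 lower of 22 (18.2%, against 3.79% of all probe sets), the peroxiredoxin genes Prdx1 (-5.10), Prdx2 (-2.57) and Prdx3 (-3.39) and the mitochondrial superoxide dismutase gene Sod2 (-4.82), though the list median was 0.047. Of these, HSC replicate 2 had the highest score in each, and without it the differences were -1.19 for Prdx1, -1.94 for Prdx3 and -2.22 for Sod2. The second probe set of Prdx2 had the other sign. In the hypoxia list the mitophagy receptor genes went apart, Bnip3 lower (-6.41, and -3.92 without HSC replicate 1) and Bnip3l higher at both probe sets (8.19 and 3.82). The Bnip3l differences were 2.23 and 1.40 without HSC replicate 2, whose score of -15.3 at the first probe set was far from the -3.37 of replicate 1. Pdia4, a chaperone of the endoplasmic reticulum (5.07, and 2.79 without HSC replicate 1), and Nsdhl of cholesterol synthesis (3.02) were single higher calls.

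Interferon genes had 2 higher of 29, Ifit3 (5.45, and 3.43 without HSC replicate 2) and Isg20 (3.55), and 2 lower, Mx1 (-6.10) and Oas1a (-10.1), against 2.52% higher and 3.79% lower among all probe sets. Mx1 scored 12.4 and 3.03 in HSC, 1.31 and 0.44 in LSC, and 2.74 and 1.94 in Alox5-/- LSC. Its high value was that of HSC replicate 1 alone, and without that array the difference was -1.42. Inflammation genes had 2 lower of 25, the adhesion molecule gene Icam1 (-5.07) and the NF-kappaB subunit gene Rela (-2.87, and -1.56 without HSC replicate 2). Antigen presentation had 2 higher of 33, at 3.68 and 4.78. They were 2 of the 19 probe sets of Nlrc5, the regulator of MHC class I genes, of which 13 had that sign. Vcam1, an adhesion molecule gene (4.44), was higher, and Blm, a DNA helicase gene (-3.86, and -1.72 without HSC replicate 2), lower. The p53 target, BCL2 family and handling stress lists had no probe set at an unadjusted p under 0.05 among 15, 14 and 24.

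Across all 39 lists, 974 probe sets of 795 genes were read. At an unadjusted p under 0.05, 45 were higher and 47 lower (9.45%, against 6.31% of all). The lists were chosen with earlier results of these data known, so their shares, here and above, are a description. Calls fell in both directions in 14 lists, were higher only in 11, lower only in 10 and absent in 4. The median of 18 lists changed sign when an HSC array was left out, that of 12 differed in sign between the genotypes, and that of 19 changed sign without centring. Of the 78 list probe sets named by the rule, 70 had BCR-ABL arrays that did not overlap HSC. They were picked for small p, and 1234 of all 1363 probe sets at that p did not overlap either. At any p, 15.6% of all probe sets did not overlap. Leaving out 1 HSC array moved 27 of the 78 by more than 1.5 times. It turned the sign of 0, but at the 70 without overlap it could not.

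**Figure D5:**
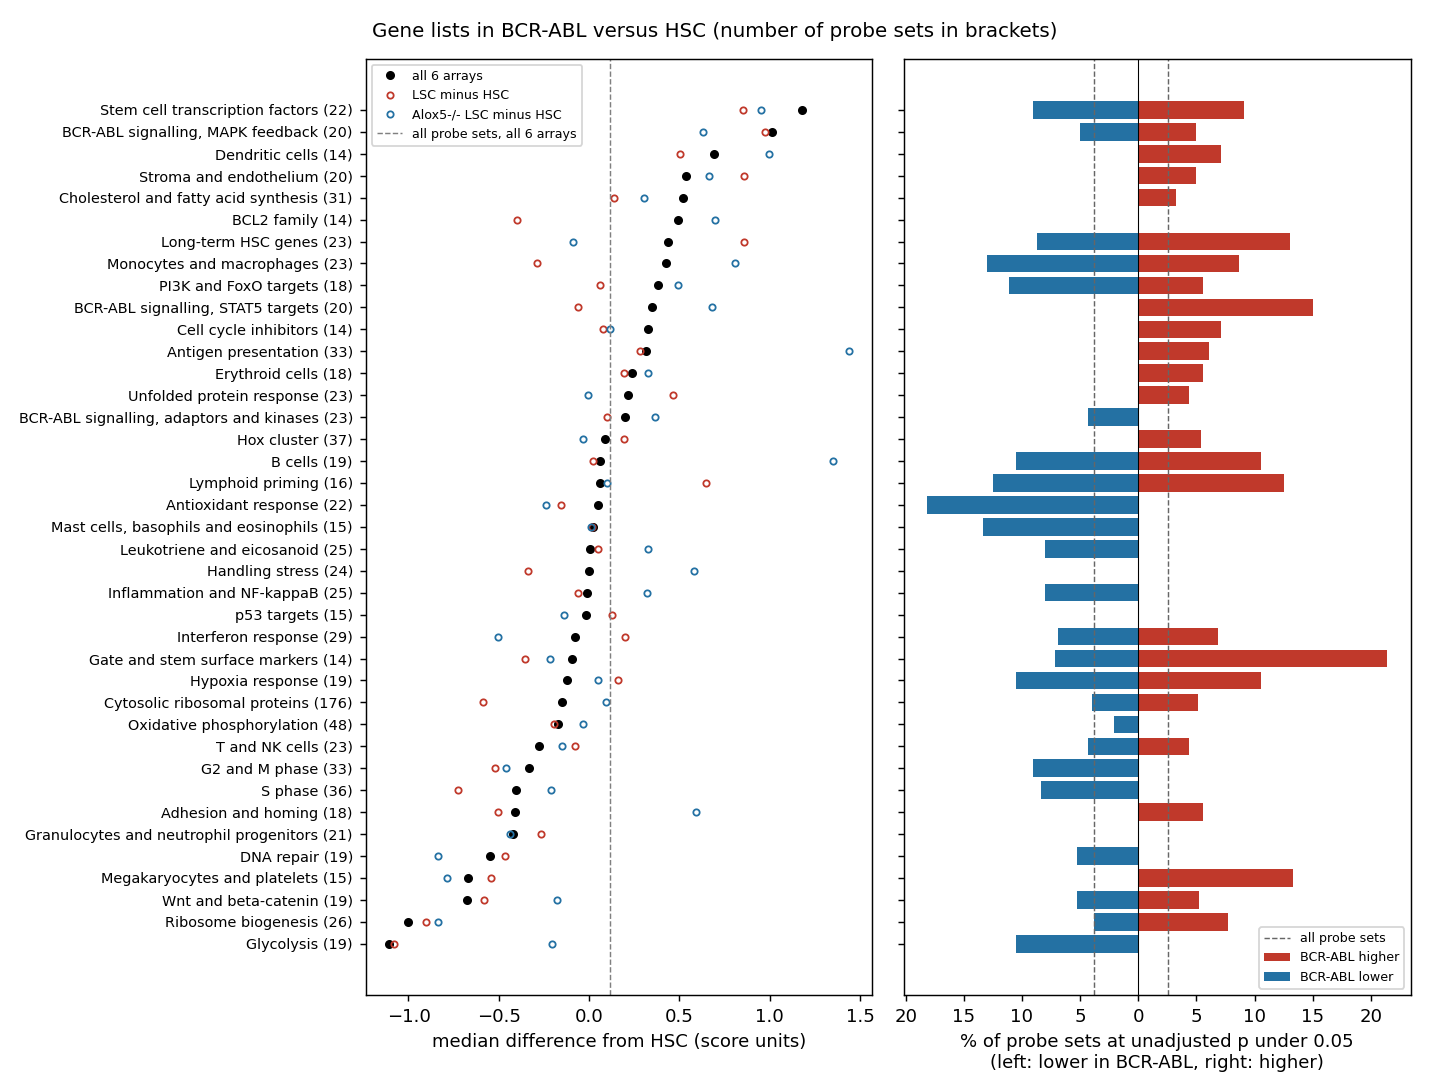
Left, median difference from HSC (score units) of each gene list over all 6 arrays and for each genotype alone, with the median of all probe sets (0.113) dashed. Right, percent of each list's probe sets at an unadjusted p under 0.05, lower to the left and higher to the right, with 3.79% and 2.52% of all probe sets dashed. Most list medians lie within 1 unit of 0, and 14 lists have bars on both sides.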

How the data were processed

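RNA of 6 samples was amplified from 100 to 300 ng per sample for Affymetrix whole-transcript arrays (per the labels). The authors deposited 1 score per probe set and array. The submitters' processing notes name Affymetrix Expression Console 1.1 and RMA, but many deposited scores exceed what log2 of a 16-bit scan allows, so differences are given in score units and never as ratios. The build of the array design is not given in the sources used here. Of the 35557 probe sets 1058 held no value, 12147 had no listed symbol and 1621 had several. Each array was centred on its median.

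Tests used limma 3.58.1 in R 4.3.3 (trended eBayes, two-sided, Benjamini-Hochberg over 21601 probe sets, threshold 0.05). The pooled comparison had 4 residual degrees of freedom. Genotype contrasts came from a 3-group fit with 3, and no filter on low scores was used. The fits were tested on simulated data. The number of arrays limits precision.

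Groups came from the sample titles. Named genes were 10 fixed genes, of which Ly6a had no usable probe set, then the 12 smallest p in each direction among separated probe sets (none passing adjustment, unnamed gene models left out), up to 4 members per list at an unadjusted p under 0.05, and the 5 smallest genotype p in each direction, among pooled calls and among genes on opposite sides of HSC. The members and lists were chosen with earlier results of these data known. Alternatives were no centring, quantile normalization, a filter at the 25th percentile, 1 probe set per symbol, the replicate number as a block, the number ending each sample description (its meaning is not given in the sources used here) as a covariate, the mean of both genotypes from the 3-group fit, eBayes without trend, and each array left out.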

Additional observations from a re-analysis of the deposited data

Results flagged for a closer look

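Among the 4 BCR-ABL arrays, 1 array stood far from the other 3 for 3 of 126 probe sets looked at (2.38%, where chance sets apart about 1 in 20). Kit scored -1.45 on LSC replicate 2 and -4.87 to -4.37 on the others. Pes1 scored 6.15 on Alox5-/- LSC replicate 1 and -0.60 to 0.48 on the others. Oas1a scored 4.14 on LSC replicate 1 and -11.0 to -10.3 on the others.

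The genotypes moved to opposite sides of the same HSC arrays, with every array of one genotype above both HSC arrays and every array of the other below, for 9 named genes. The difference of Alox5-/- LSC from LSC was 8.95 for Snu13, 8.61 for Mlf1, 6.27 for Prdm9, 7.0 for Mon1b, 7.36 for Zfp420, -6.35 for Timm17a, -7.09 for Cspp1, -9.48 for Samd9l and -6.19 for Il18. The test of this difference gave an adjusted p of 1.00 for each (limma), and the genes were chosen by its smallest unadjusted p.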

How the results depend on the processing

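No setting gave a probe set past the adjusted threshold in BCR-ABL versus HSC (limma), and the smallest adjusted p ran from 0.094 without HSC replicate 1 to 0.461. The count shared by both genotypes, 390, was 229 with the description number as a covariate and ran from 263 to 935 with 1 array left out, and that of Alox5-/- LSC versus LSC, 857, ran from 714 to 1439. BCR-ABL versus HSC (1363) gave 1040 when HSC replicate 2 was left out and 1925 when HSC replicate 1 was. A group left with 1 array was assumed to vary like the others. With the description number as a covariate, Alox5-/- LSC versus LSC gave 584 and Alox5-/- LSC versus HSC 886 (1291 without it). Under that setting LSC versus HSC gave 1244 (1109 without it) and BCR-ABL versus HSC 1488. The 24 genes of smallest p were chosen for separated arrays, so leaving out 1 array cannot turn their sign. Keeping the probe set of highest mean per symbol replaced 3 of them by another, with Rpl19 at 0.98 (4.65 before), Cdc5l at 1.64 (5.88) and Trappc2 at 2.0 (6.46), and keeping the lowest put Hacd1 at 3.18 (11.9). Without centring Blk was -0.65, and Bcr was 1.11 or -1.23 by the probe set kept. With 1 array left out, Blk ran from -0.83 to 0.95, Scd1 from -0.92 to 0.56, Bcr from -4.59 to 2.12, Alox5 from -4.88 to 1.48 and Msr1 from -1.87 to 0.62. The causes were not tested.

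Same-numbered replicates did not deviate together (correlations of 0.00, -0.06 and -0.05), so the numbers do not pair the samples. With the replicate block the counts were 1348 for BCR-ABL versus HSC, 1068 and 1230 for LSC and Alox5-/- LSC each against HSC, 841 between the genotypes and 387 shared.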

Other observations

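Probe sets of the same gene gave a measure of agreement that the comparison did not use. Of 12 symbols with exactly 2 probe sets and an unadjusted p under 0.05 at both (limma), 7 had the same sign at both. Lower at both were the proteasome genes Psmb3 (-3.79 and -3.26) and Psmc1 (-6.48 and -2.85), Fam222b (-8.26 and -5.32) and Zranb1 (-6.06 and -4.14). Higher at both were Socs2 (8.03 and 4.78), Bnip3l (8.19 and 3.82) and the glycolipid anchor gene Pigp (3.93 and 8.60). Opposite signs were found for the dipeptidase gene Dpep2 (-2.86 and 6.24), Mob3b (-5.44 and 5.51), the iron-sulphur scaffold gene Nfu1 (4.09 and -8.34), Pdcd10 (-2.68 and 5.85) and the transcription factor subunit gene Taf13 (-3.47 and 3.08). The mean deposited scores of the 2 probe sets of a symbol were a median of 3.29 units apart over 754 symbols. Of the 19 probe sets of Nlrc5, 13 had the sign of the 2 that had an unadjusted p under 0.05. These genes were named after their values were seen.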
